A study of Mus musculus with 3 samples.

Results

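The intestinal identity loci Cdx1, Cdx2, Hnf4a and Vil1 were examined in a ChIP-seq study (chromatin immunoprecipitation followed by sequencing) of the transcription factor SOX2 in mouse stomach. Members are all SOX2 ChIP peaks of the wild-type and knockout lists that touch 1 of 4 windows of the mouse build mm9: chromosome 5 from 148012000 to 148219000 for Cdx2, chromosome 18 from 61078000 to 61296000 for Cdx1, chromosome 2 from 163232000 to 163498000 for Hnf4a and chromosome 1 from 74356000 to 74583000 for Vil1. The windows held 6 of the 8100 peaks in both lists together, all 6 of them from the wild type.

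The tissue was gastric glands from the antrum, the distal stomach, of mice on a mixed C57BL/6 x 129 background. Both genotypes carried loxP-flanked Sox2 alleles (Sox2 fl/fl) and both received tamoxifen at 8 weeks of age, with stomachs taken 2 weeks later. The wild type had an unmodified Rosa26 locus (Rosa26WT), and the knockout carried a tamoxifen-inducible Cre recombinase there (Rosa26CreER). Rosa26 is active in most cell types, so deletion was not limited by the driver to the epithelium, and the labels used here do not say whether animals were pooled. There was 1 ChIP library per genotype, so no replicate error exists for any value and no p-value was computed. Wild-type glands gave a list of 7213 peaks and knockout glands one of 887, in which no score was under 50.02. How deeply either library was sequenced is unknown, and both the number and the score of peaks move with depth. Peak lists carry no expression values, so the tissue label and the loss of Sox2 were not checked here.

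SOX2 is a high-mobility-group factor of the foregut, where it marks the stomach and oesophagus, while CDX1 and CDX2 are the homeobox factors that specify the intestine. CDX factors are largely absent from healthy gastric epithelium and appear when gastric glands take on intestinal features (intestinal metaplasia). HNF4A is a nuclear receptor that drives enterocyte genes and is also expressed in the stomach, and villin, the product of Vil1, bundles actin in the microvilli of the intestinal brush border.

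Wild-type glands had 3 peaks in the Vil1 window, 2 in the Cdx2 window, 1 in the Hnf4a window and 0 in the Cdx1 window. Knockout glands had 0 peaks in each of the 4 windows. The strongest of the 6 peaks scored 292.46 and lay in the Vil1 window, and the peak nearest to the middle of the Cdx2 window scored 172.94. A score is the value the authors' peak caller gave a peak, and it is used here only to rank peaks within a list.

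**Figure D1:**
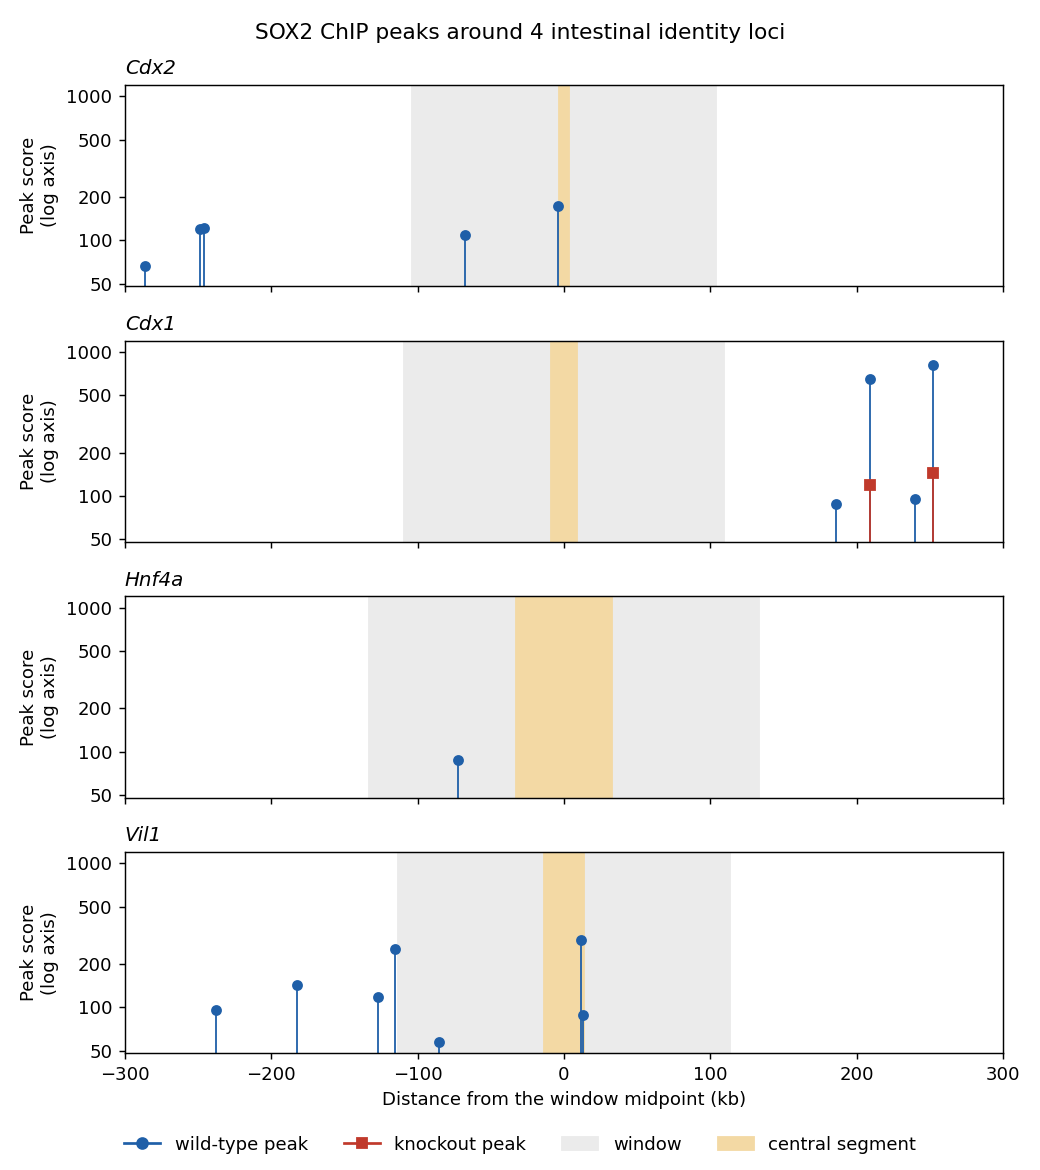
Peak score (log axis) against distance from the window midpoint in kb, for wild-type peaks (blue circles) and knockout peaks (red squares). Grey marks the window and yellow its central segment, which is as long as the gene to the nearest kb or so. The 6 wild-type peaks in the windows lie at 3 loci, and the knockout peaks in view, with scores of 120.14 and 143.74, lie beyond the Cdx1 window.

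Each window was longer than its gene, by an amount that leaves about 100 kb on either side if the gene is in the middle. Without these flanks, 7 kb was left for Cdx2, 18 kb for Cdx1, 66 kb for Hnf4a and 27 kb for Vil1, and the RefSeq genes span 6.35, 17.3, 66.1 and 26.2 kb on GRCm38.p6. The central segment is therefore taken as the place of the gene, although no mm9 annotation was used to check it. Exon, intron or UTR positions are not given for the peaks for that reason.

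Promoters of Cdx2 and Vil1 are shown because these are the genes with a wild-type peak in or within 1 kb of the central segment. Those peaks lay at the end of the segment away from the transcription start. They were 7.50 kb from the start-side edge for Cdx2, and 25.1 and 26.1 kb from it for Vil1. The sequences are the 250 bases before the RefSeq transcription start, read 5′ to 3′ on the strand of the gene. Capitals mark ACAAAG, 1 of the 2 forms (ACAAAG and ACAATG) of the SOX-factor consensus that were searched on both strands. Both come from GRCm38.p6, whose coordinates cannot be set beside the mm9 positions of the peaks. The Cdx2 promoter is chr5:147307250-147307499, minus strand, and the Vil1 promoter is chr1:74409134-74409383, plus strand.
Cdx2: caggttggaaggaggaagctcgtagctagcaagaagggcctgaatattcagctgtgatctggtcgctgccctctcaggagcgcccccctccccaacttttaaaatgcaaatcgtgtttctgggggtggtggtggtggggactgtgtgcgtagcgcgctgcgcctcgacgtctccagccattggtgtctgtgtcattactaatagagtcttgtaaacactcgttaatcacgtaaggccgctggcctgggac
Vil1: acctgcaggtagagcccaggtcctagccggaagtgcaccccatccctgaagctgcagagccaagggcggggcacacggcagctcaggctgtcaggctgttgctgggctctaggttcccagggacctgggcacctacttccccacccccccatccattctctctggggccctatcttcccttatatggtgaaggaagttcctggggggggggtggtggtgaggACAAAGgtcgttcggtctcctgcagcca
RefSeq promoter entries were searched for 3 of the 4 genes (Cdx2, Hnf4a and Vil1), with 4 starts in all, 2 of them for Hnf4a. The promoter of the remaining gene was not searched, so nothing is said here about its RefSeq entries or its sequence. The Vil1 promoter held ACAAAG once, from 28 to 23 bases before the start, and the other entries searched held neither form. Among all 32851 promoter entries of this length, 16.5% held ACAAAG, 10.7% held ACAATG and 25.2% held either. The forms share their first letters and cannot both match at the same bases. A match describes these letters only.

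Cdx2, the master regulator of intestinal fate, had 2 wild-type peaks in its window. The stronger lay on chromosome 5 from 148111122 to 148111502, was 381 bp wide and scored 172.94, which ranked it 1163 in the wild-type list. It ended 498 bp before the central segment. The Cdx2 gene is read toward lower coordinates, so this peak lay at the end of the segment away from the transcription start, within the rounding of the window edges to kb. The weaker peak, from 148047418 to 148047806, was 389 bp wide, scored 108.68 and ranked 2478. It was 64.2 kb before the central segment, on the side of Pdx1. Pdx1, a homeobox regulator of pancreas, duodenum and antrum, is the next coding gene on that side in RefSeq, and without its mm9 position the peak was not assigned to either gene.

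At least 2 wild-type peaks were present in 14.6% of all 12300 tiles of 207 kb, the length of the Cdx2 window, and at least 1 in 30.8%. These tiles were laid end to end over each chromosome between its outermost peaks in either list and replace randomly placed windows. They cover gene-rich and gene-poor stretches alike, whereas the 4 windows were placed on genes. Among tiles with at least 1 wild-type peak, 47.4% held at least 2. Counting only scores of at least 100 was a tile setting chosen after seeing the data, and it left both Cdx2 peaks. With it, 4.41% of all tiles held at least 2. It was not run for the wild-type counts of Hnf4a and Vil1, which that limit changes. A wild-type peak scoring 172.94 or more was present in 8.04% of the tiles. No knockout peak was listed in the Cdx2 window, and none was listed in 93.8% of the tiles. The absence of a knockout peak is thus what most stretches of this length show. Among the 962 tiles with exactly 2 wild-type peaks, 83.0% had no knockout peak. The nearest knockout peak to the stronger Cdx2 peak was 1753 kb away, between 149864561 and 149864897 of chromosome 5, and scored 311.80. Beyond the stronger peak, no wild-type peak was listed for 1061 kb on the higher-coordinate side, so the central segment and the Urad and Flt3 side of the locus were free of listed peaks. Of the 7189 gaps between neighbouring wild-type peaks, 8.11% were as long, and they made up 55.6% of the total gap length.

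Cdx1, the other intestinal CDX factor, had 0 wild-type and 0 knockout peaks in its window of 218 kb. Tiles of that length had no wild-type peak in 68.7% of 11682 cases and no knockout peak in 93.5%. An empty Cdx1 window is thus near the background in either list. The gap in the wild-type list around Cdx1 ran on chromosome 18 from 60821294 to 61372542, or 551 kb, against a median gap of 94.2 kb over the list. Gaps of 551 kb or more were 15.9% of all gaps and made up 72.2% of the total gap length.

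The side of Cdx1 with higher coordinates, where Pdgfrb and Csf1r follow it in RefSeq, held peaks outside the window, some of them strong. The first wild-type peak lay 76.5 kb outside, from 61372543 to 61372878, and scored 88.59. The second, 99.6 kb outside from 61395624 to 61396157, scored 651.68 and ranked 61 in the wild-type list. It overlapped a knockout peak from 61395733 to 61396127 with a score of 120.14, which ranked 93 in the knockout list. This was a site that both lists held, unlike the peaks in the 4 windows. A peak from 61426852 to 61427213 scored 95.58 and had no knockout partner. The last within 150 kb of the window, from 61438654 to 61439230, scored 815.90 and ranked 29, and its knockout partner from 61438783 to 61439144 scored 143.74 and ranked 58. These 4 peaks were not assigned to a gene. Depth and genotype cannot be told apart in the difference between the lists' scores.

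Hnf4a, the nuclear receptor, had 1 wild-type peak in its window of 266 kb and 0 knockout peaks. The peak lay on chromosome 2 from 163292601 to 163292952, was 352 bp wide, scored 87.76 and ranked 3357. It lay 39.0 kb before the central segment, on the side of the neighbouring genes R3hdml, Fitm2 and Gdap1l1. Hnf4a is read toward higher coordinates, so the peak was on the upstream side of the gene, and the central segment itself held none. The RefSeq table lists a pair of starts for Hnf4a, a gene known to use alternative promoters. At least 1 wild-type peak was present in 35.4% of 9571 tiles of 266 kb, 1 scoring 87.76 or more in 22.5%, and no knockout peak in 92.2%. Both counts are common for a stretch of this length. Among the 1566 tiles with exactly 1 wild-type peak, 90.1% had no knockout peak. The nearest other wild-type peak to the Hnf4a peak was 371 kb away, and the nearest knockout peak, which scored 52.44, was 1529 kb away. The gap in the wild-type list after the Hnf4a peak measured 991 kb. Gaps at least as long were 8.79% of all gaps and made up 57.6% of the total gap length.

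Vil1, the brush-border gene, had 3 wild-type peaks in its window of 227 kb when every listed peak was counted. With scores of at least 100 the Vil1 window held 1 peak and the Cdx2 window 2. The strongest lay on chromosome 1 from 74481122 to 74481577, was 456 bp wide, scored 292.46 and ranked 389, so that 5.39% of the wild-type list scored as high. A second, from 74482118 to 74482650, was 533 bp wide, scored 88.73 and ranked 3292. The peaks were 540 bp apart, and both lay inside the central segment, ending 1.42 kb and 0.350 kb before its higher-coordinate edge. Vil1 is read toward higher coordinates, so this pair lay at the end of the segment away from the transcription start, where Usp37, which encodes a deubiquitinating enzyme, is the next coding gene in RefSeq. Of all wild-type peaks, 8.21% had another less than 1 kb away. The third peak, from 74383793 to 74384114, was 322 bp wide, scored 57.88 and ranked 5826. It lay 71.9 kb before the central segment, on the side of Ctdsp1, Slc11a1 and Catip.

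At least 3 wild-type peaks were present in 7.85% of 11216 tiles of 227 kb, at least 1 in 32.4%, and 1 scoring 292.46 or more in 3.25%. Among tiles with at least 1 wild-type peak, 24.2% held at least 3, so the place of the Vil1 count depends on which tiles it is set beside. The edge of the window mattered for this locus. A wild-type peak from 74353694 to 74354258 with a score of 256.55 lay 1.74 kb outside, and 4 wild-type peaks in all lay within 150 kb of the window, all on its lower-coordinate side. Their scores ran from 95.84 to 256.55, and none overlapped a knockout peak. Knockout glands had no peak in the Vil1 window, as was the case in 93.3% of the tiles. Among the 442 tiles with exactly 3 wild-type peaks, 74.7% had no knockout peak. The nearest knockout peak to the pair was 527 kb away and scored 58.25.

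**Figure D2:**
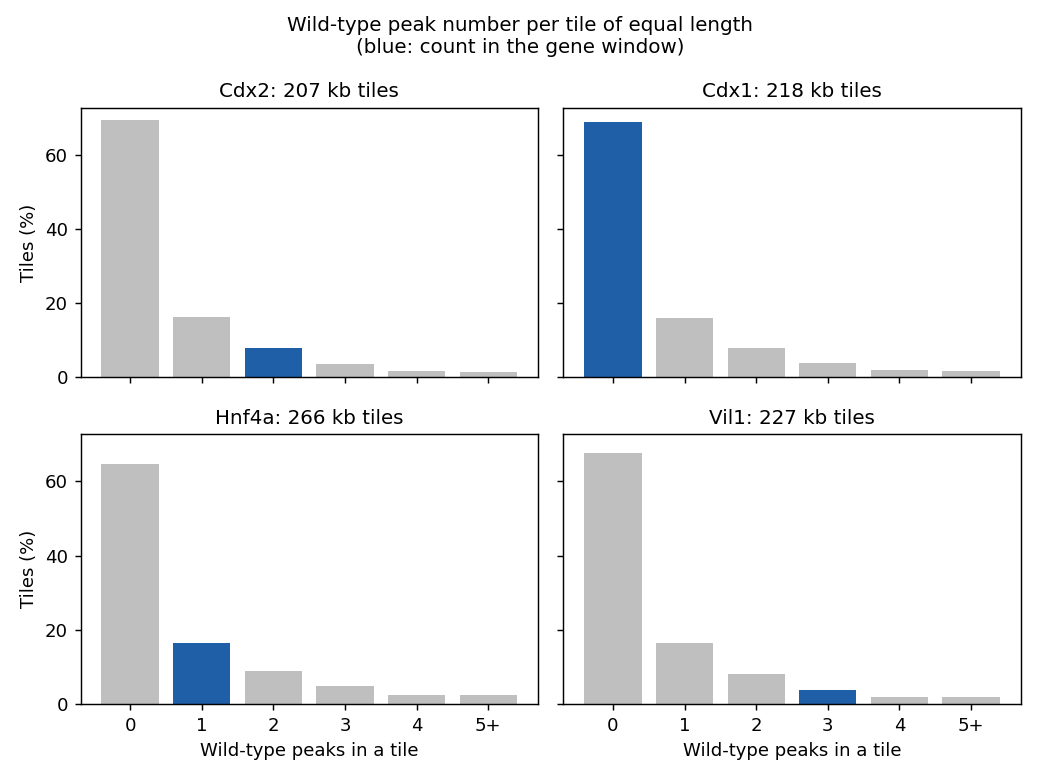
Share of tiles (%) with 0, 1, 2, 3, 4 and 5 or more wild-type peaks, for tiles as long as each gene's window. Blue bars mark the count in the gene's window, which is 2 for Cdx2, 0 for Cdx1, 1 for Hnf4a and 3 for Vil1, and the tallest bar in each panel is 0 peaks (64.6% to 69.2% of tiles).

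Across the 918 kb of the 4 windows the wild-type density was 6.54 peaks per Mb, with an exact Poisson 95% interval of 2.40 to 14.2. The whole list had 2.83 peaks per Mb, which lies within that interval. The interval covers counting error only, since peaks of 1 library are not replicates. By locus it was 0 per Mb for Cdx1 (interval 0 to 16.9), 3.76 for Hnf4a (0.0952 to 20.9), 9.66 for Cdx2 (1.17 to 34.9) and 13.2 for Vil1 (2.73 to 38.6). All these intervals treat peaks as independent of each other, although the pair in the Vil1 segment lay only 540 bp apart. The intervals by locus overlap widely, so counts of 0 to 3 do not separate the loci beyond counting error. On the chromosomes that hold them, the wild-type list had 3.07 peaks per Mb on chromosome 5, 3.25 on chromosome 18, 2.85 on chromosome 2 and 2.42 on chromosome 1. The knockout list had 0.348 peaks per Mb over the same chromosome spans as the wild-type list, at which 0.319 peaks would fall in 918 kb, so a count of 0 is close to what that density gives.

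The 6 peaks ranged in score from 57.88 to 292.46 with a median of 98.71, beside 82.62 over the whole wild-type list. Scores reached 100 or more for 3 of them and for 38.8% of the list. Their widths ran from 322 to 533 bp with a median of 385.0 bp, beside 320 bp for the list. The highest and the next score belonged to the peak in the Vil1 segment and the one beside the Cdx2 segment. The other peak in the Vil1 segment scored 88.73, and the 3 peaks at least 39.0 kb from a segment scored 57.88, 87.76 and 108.68, so nearness to the segment did not order the scores throughout.

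None of the 6 wild-type peaks overlapped a knockout peak, beside 8.15% of the list (exact Clopper-Pearson 95% interval 7.53 to 8.81). The share depends on score, so the list was split by score into 10 slices of 10% each, and each member is read beside its slice. The Vil1 peak with a score of 292.46 belonged to the highest slice, in which 45.0% (41.3 to 48.7) overlapped a knockout peak. Scores in that slice ran from 221.05 to 2097.47, so it holds much stronger peaks as well. The Cdx2 peak with a score of 172.94 belonged to the second slice, in which 14.6% did (12.1 to 17.4). For the other 4 peaks the share in their slice was between 0.971% and 3.60%. A missing partner was thus the more frequent outcome in the slices of all 6 peaks, by the smallest margin in the highest slice. For the strongest Vil1 peak, the share among peaks close to its own score was not computed. A site whose knockout signal stayed under the lowest score of 50.02 would not be listed, so the lists do not show that signal was absent there.

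**Figure D3:**
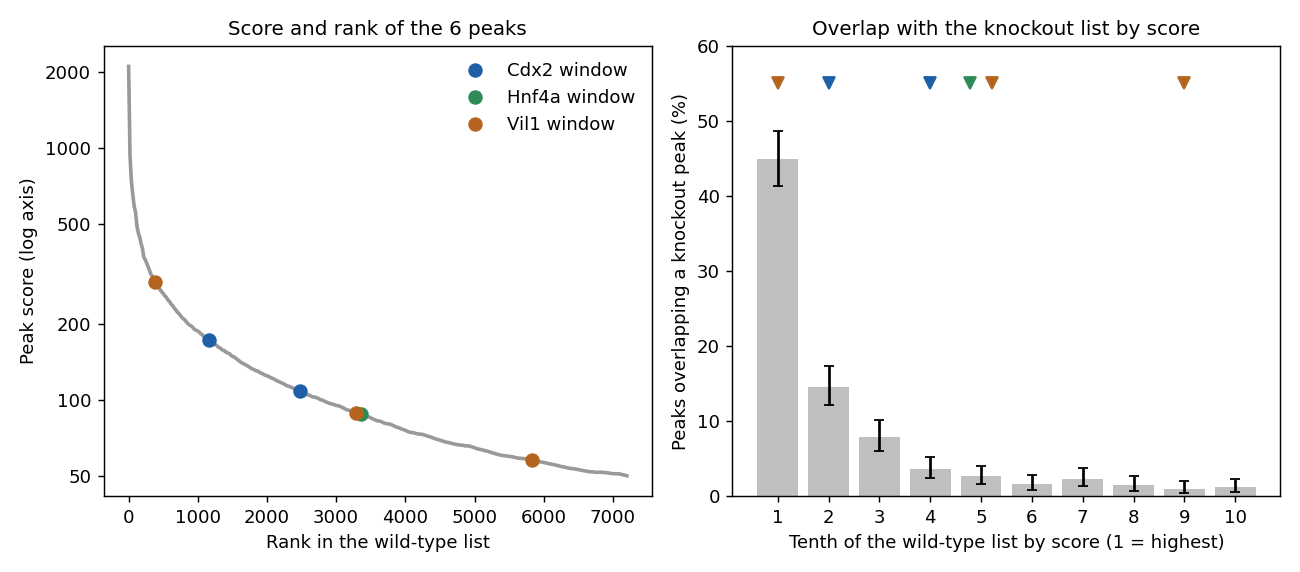
Left, score (log axis) against rank for the wild-type list (grey line) and the 6 peaks of the windows. Right, share of wild-type peaks (%) overlapping a knockout peak in each 10% slice of the list by score, with exact 95% intervals, and triangles for the slices of the 6 peaks in the same colours. The strongest Vil1 peak, with rank 389, falls in the highest slice, in which 45.0% of all peaks had a knockout partner.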

How the data were processed

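SOX2 ChIP-seq peaks of antral glands were analysed for 1 wild-type and 1 Sox2 knockout library. The wild-type input was not analysed here. Per the labels' protocols, chromatin was fixed in formaldehyde (1%, 10 min), sheared, and precipitated with a goat antibody against SOX2. The submitters' processing notes name Bowtie2, MACS and mm9. No version, setting or control library is given in the sources used here. The authors deposited 1 list per library with a score per peak, of unnamed scale. Read depth is unknown.

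Positions are 1-based on mm9. A peak counted when at least 1 bp lay in a window or another peak, and bedtools 2.31.1 gave the same window counts. Tiles of each window's length were laid end to end. Counting was tested on simulated data. The named peaks are all those in the windows and the nearest outside. Members and lists were chosen with earlier results of these data known. A longer intestinal gene list was not counted, for want of an mm9 annotation here. Neighbouring genes, lengths and promoters are from RefSeq on GRCm38.p6, used for names, order, strand, gene length and promoter sequence, and never for positions of peaks. Alternatives covered score limit, window edges, overlap rule and tiling. Python 3.11.15, NumPy 2.4.6, SciPy 1.17.1 and matplotlib 3.10.9 were used.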

Additional observations from a re-analysis of the deposited data

How the results depend on the processing

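Of 78 alternatives over 17 values, 51 changed a share by less than its exact interval or a count by no more than 1.5 times, and 27 changed it by more. The knockout count stayed 0 in each window under every score, edge and midpoint setting run, except that 100 kb more at each end gave 1 knockout peak for Cdx1. That setting also gave 2 wild-type peaks for Cdx1 and 6 for Vil1. Taking 50 kb off each end left 1 for Cdx2. A score of at least 100 left 0 for Hnf4a and 1 for Vil1. No peak in the windows gained a knockout partner with the reciprocal overlap of 50% or within 1 kb.

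On autosomes only, at least 2 wild-type peaks were present in 15.5% of Cdx2-size tiles, at least 1 in 37.2% of Hnf4a-size tiles and none in 67.1% of Cdx1-size tiles. On the gene's own chromosome these were 15.7%, 38.3% and 64.6%, at least 3 peaks were present in 6.28% of Vil1-size tiles, and no knockout peak in 93.2% for Cdx2 and 93.8% for Vil1. Among tiles with a wild-type peak, 47.4% had the Cdx2 count and 24.2% the Vil1 count or more, and 83.7%, 82.9%, 81.7% and 82.8% had no knockout peak at the sizes of Cdx2, Cdx1, Hnf4a and Vil1. With scores of at least 100, a setting chosen after seeing the data, 4.41% had at least 2 wild-type peaks, 82.9% of Cdx1-size tiles had none, and 99.1%, 99.0%, 98.8% and 99.0% had no knockout peak. The moves follow from which tiles or peaks were kept. Requiring a wild-type peak in a tile fixes the wild-type shares of Hnf4a and Cdx1, and the tile shares with scores of at least 100 were not run for the wild-type counts of Hnf4a and Vil1, which that limit changes, so neither gives a value. No paired analysis was possible because each genotype had 1 library, and no library could be left out. Unknown depth limits every comparison between genotypes.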
